A study of Mus musculus with 6 samples.

Results

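The nuclear lamina and the linker of nucleoskeleton and cytoskeleton (LINC complex) were examined through 10 listed genes: the lamin genes Lmna, Lmnb1 and Lmnb2, the inner nuclear membrane genes Lbr, Emd and Tmpo, the SUN-domain genes Sun1 and Sun2, and the nesprin genes Syne1 and Syne2. They were found by symbol among the 55471 Ensembl genes of the deposited table. All 10 had a row, and all 10 were among the 15454 genes that passed the filter on low counts. The cells were 10T1/2, a line of mouse embryonic fibroblasts, grown without any treatment, and their polyA RNA was sequenced in 6 libraries. The 3 libraries labelled Ranbp2 KO came from cells edited with CRISPR/Cas9 in that study, and the 3 WT libraries from cells of the same line labelled WT. The labels give no clone number for the edited cells, and p-values here measure the spread between libraries.

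The lamina is a meshwork of intermediate filament proteins, the A-type and B-type lamins, that lines the inner nuclear membrane and anchors chromatin and membrane proteins. LINC complexes cross both membranes of the envelope: SUN proteins in the inner membrane bind the lamina and, between the membranes, hold the KASH-domain tails of nesprins, whose outer parts reach actin, microtubule motors and intermediate filaments. In fibroblasts these proteins position the nucleus and carry force to it. Ranbp2 encodes a filament protein on the cytoplasmic side of the nuclear pore.

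Total expected counts ran from 32072817 to 39378190 in the KO-labelled libraries and from 41354198 to 46321967 in the WT libraries. Ranbp2 mRNA was at 294, 289 and 293 CPM (counts scaled to a common library size with TMM factors) in the KO-labelled libraries, against 219.6, 249.96 and 249 CPM in WT libraries. The groups did not overlap, and Ranbp2 was higher in the KO-labelled libraries by 0.28 on the log2 scale (adjusted p 0.012 by edgeR). The label was therefore not matched by a lower count. Gene-level counts cannot tell an edited transcript from an intact one, and these libraries are called KO-labelled. Of 8 fibroblast markers, 8 were tested, and their summed level was 14835 to 16544 CPM in the KO-labelled and 14741 to 17787 CPM in WT libraries. Within these overlapping sums 4 markers rose, 2 fell and 2 were not called, or 75.0% called against 38.9% of all genes tested. Their log2 differences ran from -0.43 for Col1a1 to 2.23 for Lum, which was under 1 CPM in every library. Dcn differed by 1.98 and Col3a1 by 0.94. Summed epithelial markers were at 5.87 to 8.78 CPM in KO-labelled and 1.85 to 2.50 CPM in WT libraries, with Cldn4 at 0 in all 6. Of these 4 markers only Cdh1 was tested, at 7.46 ± 1.47 CPM in KO-labelled and 2.22 ± 0.327 CPM in WT libraries. Cdh1 was called higher (log2 difference 1.75, adjusted p 7.21e-05 by edgeR). Endothelial and leukocyte markers summed to 1.76 to 3.05 CPM in KO-labelled and 1.94 to 2.95 CPM in WT libraries, with Adgre1 at 0, and pluripotency markers to at most 0.757 CPM in KO-labelled and 0.434 CPM in WT libraries, with Zfp42 at 0. In bulk RNA, fewer cells of a type and less RNA per cell cannot be told apart.

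The KO-labelled libraries held more mRNA of the B-type lamin gene Lmnb1 and of its membrane partner Lbr, and less of the A-type lamin gene Lmna, of Emd (emerin) and of Syne1 (nesprin-1). These 5 of 10 members passed an adjusted p of 0.05 by edgeR's quasi-likelihood test with Benjamini-Hochberg adjustment over all genes tested, 2 of them higher and 3 lower. Among all genes tested, 38.9% passed, 17.6% higher and 21.3% lower, so the share of members is near that of all genes and is no result about the list. The median log2 difference, KO-labelled minus WT, was -0.16 over the members and 0.01 over all genes tested. For 6 members the 3 values of each group did not overlap, against 51.4% of all genes tested. Each of the 5 calls was kept under all 13 alternative fits, which included leaving out each library in turn.

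**Figure D1:**
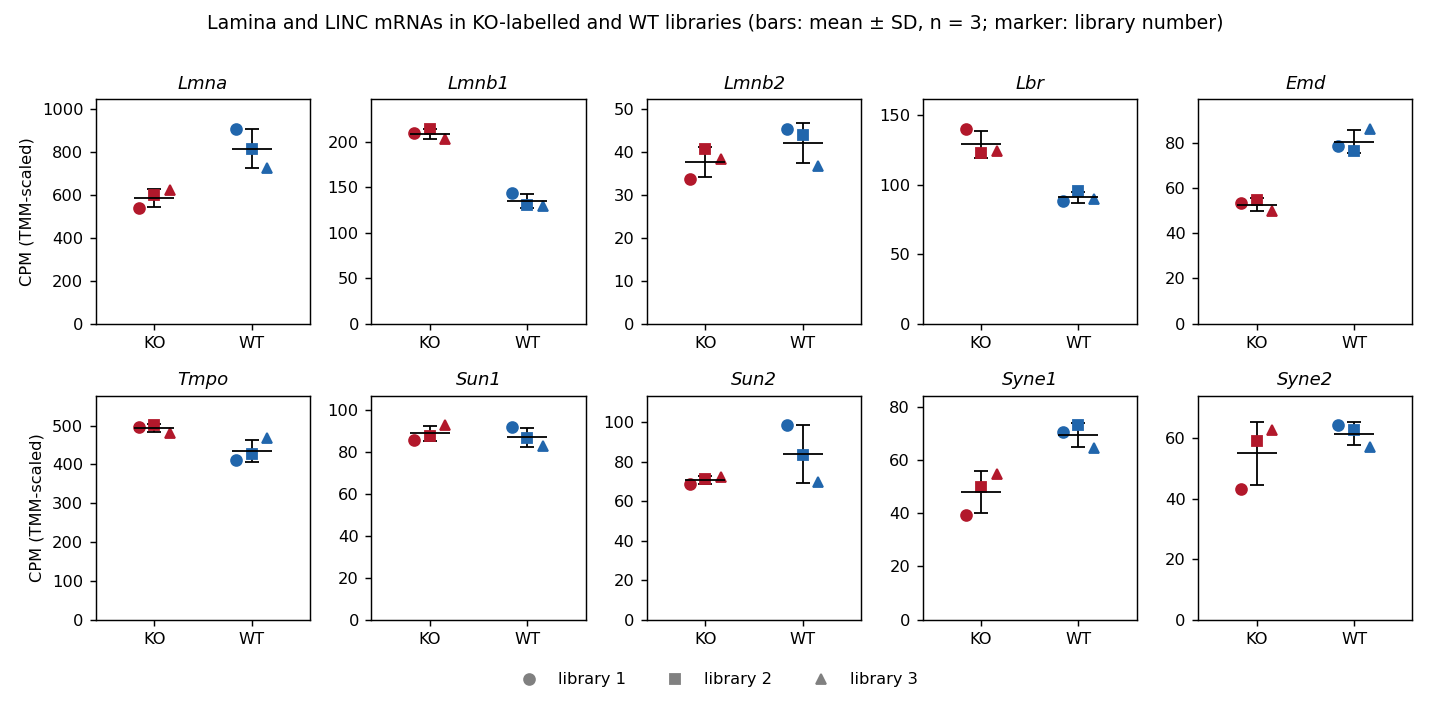
CPM of the 10 members in each library (points, shape by library number), with the mean and SD of 3 libraries per group. Lmnb1 and Lbr lie higher and Lmna, Emd and Syne1 lower in all 3 KO-labelled libraries than in any WT library, and Sun1, Sun2, Lmnb2 and Syne2 overlap.

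To show the start regions of the members that changed, the 250 bases before the start in the RefSeq table are printed for the 4 of those 5 genes that are given here. They come from RefSeq on GRCm38.p6, 9 of the 10 members matched there, and where RefSeq gives several starts the most upstream of them was taken. The windows of Lbr, Lmna and Syne1 lie inside the spans that GENCODE gives for these genes, which start further upstream. Those starts are at 181843046 for Lbr, 88509956 for Lmna and 5551482 for Syne1. The Lmna window is by far the most distant from its GENCODE start. The windows are chr1:181842402-181842651 on the minus strand for Lbr, chr3:88503353-88503602 on the minus strand for Lmna, chrX:74254437-74254686 on the plus strand for Emd, and chr10:5550693-5550942 on the minus strand for Syne1. Capitals mark matches on either strand to CCAAT, to the GC box GGGCGG, to the cell cycle element (CHR) TTTGAA or TTCGAA, to the TEAD motif GGAATG, to the AP-1 motifs TGAGTCA and TGACTCA, and to the E2F motifs TTTGGCGC, TTTCCCGC, TTTCGCGC and TTTGCCGC.
Lbr: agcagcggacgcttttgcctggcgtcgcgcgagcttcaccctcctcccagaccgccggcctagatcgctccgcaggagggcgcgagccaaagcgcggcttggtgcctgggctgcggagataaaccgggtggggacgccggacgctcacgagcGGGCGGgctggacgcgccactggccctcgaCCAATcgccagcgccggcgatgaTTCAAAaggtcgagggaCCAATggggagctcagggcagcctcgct
Lmna: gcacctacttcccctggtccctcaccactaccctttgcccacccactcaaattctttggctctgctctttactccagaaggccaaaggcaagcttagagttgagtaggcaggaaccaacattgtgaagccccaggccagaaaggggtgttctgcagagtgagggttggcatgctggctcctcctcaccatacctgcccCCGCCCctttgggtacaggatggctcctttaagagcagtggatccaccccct
Emd: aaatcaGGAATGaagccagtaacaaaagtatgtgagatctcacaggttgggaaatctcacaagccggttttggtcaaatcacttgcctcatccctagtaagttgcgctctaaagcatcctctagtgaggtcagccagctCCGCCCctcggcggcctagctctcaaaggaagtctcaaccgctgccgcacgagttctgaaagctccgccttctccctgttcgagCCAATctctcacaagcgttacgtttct
Syne1: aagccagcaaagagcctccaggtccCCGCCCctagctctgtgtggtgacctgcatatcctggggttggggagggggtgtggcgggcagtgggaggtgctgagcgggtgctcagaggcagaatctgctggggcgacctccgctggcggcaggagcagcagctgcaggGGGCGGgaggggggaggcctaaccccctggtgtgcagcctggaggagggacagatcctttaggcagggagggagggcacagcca

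Lbr, which rose, had 2 CCAAT boxes, 68 and 28 bases before the start, with a CHR match 45 bases before it, and its window was 69.6% G and C. Lmna, which fell, had a single GC box match at 52 bases, and its window was 56.4% G and C, against a median of 52.4% over all 32851 windows. Emd held a CCAAT box at 27 bases and a TEAD match at 244, and Syne1 held GC boxes alone. Of all windows, 33.8% held CCAAT, 32.7% a GC box, 17.1% a CHR match, 12.6% a TEAD match, 4.46% an AP-1 match and 1.86% an E2F match. All 9 member windows held a GC box, 5 held CCAAT, 2 a CHR match (Lbr and Sun2), and 0 an AP-1 or E2F match. The matches overlap no other motif in the 4 windows shown, and a match is a string of letters, not a measured site.

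Among the lamins, the gene of the A-type proteins fell and the B-type gene with more counts, Lmnb1, rose. Lmna (ENSMUSG00000028063, chromosome 3, 88480147 to 88509956, minus strand) encodes lamins A and C, which arise by alternative splicing and were counted together. The KO-labelled libraries had 539.7, 600.2 and 623 CPM of it, against 910.01, 814 and 728 CPM in WT libraries. The groups did not overlap, although the WT libraries spanned a wide range. On the log2 scale it differed by -0.48 (SE 0.10, 95% interval -0.70 to -0.25; adjusted p = 0.00435 by edgeR).

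Lmnb1 (ENSMUSG00000024590, chromosome 18, 56707813 to 56753424, plus strand) encodes lamin B1, which stays farnesylated and bound to the membrane. Its level was 209, 214 and 203 CPM in KO-labelled libraries, against 143, 131 and 129.6 CPM in WT libraries. All 3 KO-labelled values were above all WT values, and its rise was the largest among the members with all 6 libraries and under each alternative fit. On the log2 scale it differed by 0.64 (SE 0.07, 95% interval 0.48 to 0.79; adjusted p = 7.14e-05 by edgeR). The median was 0.11 over chromosome 18 and 0.14 over the 48 other tested genes within 5 Mb. Lmnb1 stood 0.53 relative to its chromosome and 0.49 relative to its neighbours. Lmnb2 (ENSMUSG00000062075, chromosome 10), the gene of lamin B2, was at 33.8, 40.6 and 38.4 CPM in KO-labelled and 45.4, 43.9 and 36.8 CPM in WT libraries. Its groups overlapped, and its log2 difference of -0.16 (95% interval -0.39 to 0.06) was not called.

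The ratio of lamin counts within each library, in which scaling factors cancel, shows the shift directly. Lmna over the sum of Lmnb1 and Lmnb2 was 2.22, 2.35 and 2.57 in the KO-labelled libraries, against 4.82, 4.65 and 4.37 in the WT libraries. The mean was 2.38 ± 0.179 against 4.62 ± 0.227 (SD, n = 3 each), a WT value 1.94 times the KO-labelled one, and the gap exceeds the spread of either group. Lmnb1 over Lmnb2 was 5.59 ± 0.524 in KO-labelled and 3.22 ± 0.275 in WT libraries (SD, n = 3 each). Lbr over Lmna was 0.221 ± 0.0336 in KO-labelled and 0.112 ± 0.0138 in WT libraries. For each of these ratios the exact two-sided permutation test gave p = 0.1, the smallest that 3 against 3 libraries allow, and 0.12 after adjustment over the 6 ratios computed. The ratios use the same counts as the tests of single genes and are not further evidence.

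**Figure D2:**
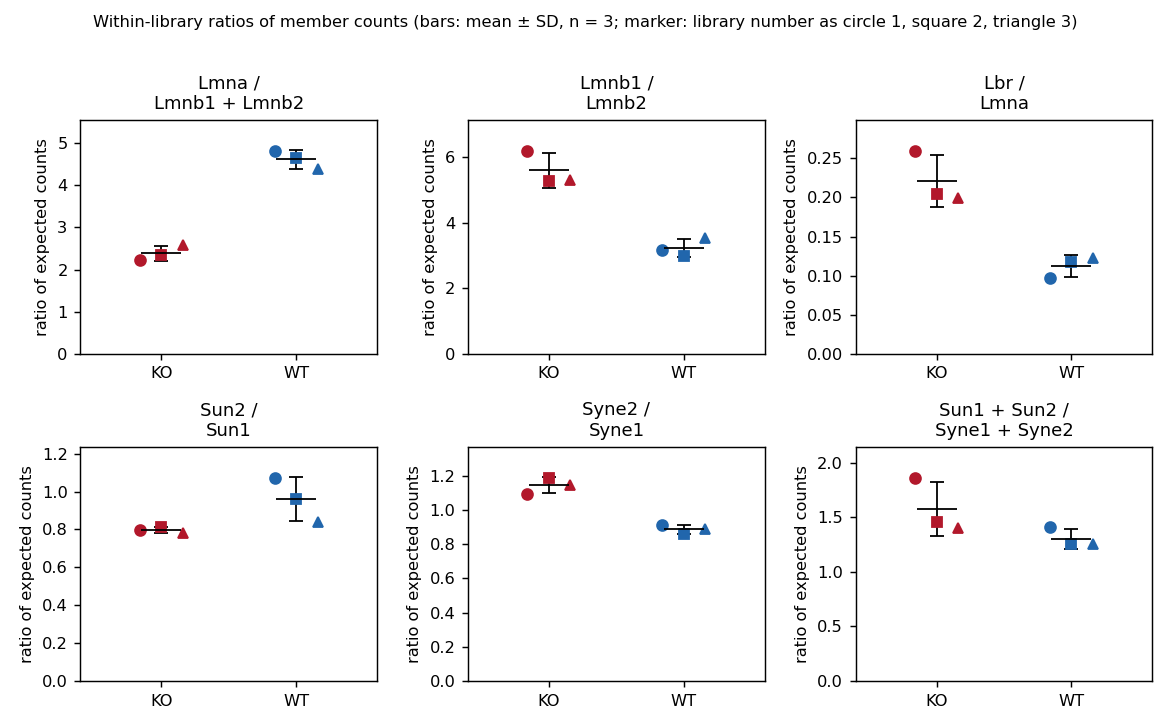
Ratios of expected counts within each library (points) with the mean and SD of 3 libraries per group; axes start at 0. Lmna over the B-type lamins averaged 2.38 in KO-labelled and 4.62 in WT libraries, and the ratio of SUN to nesprin counts is the 1 ratio of 6 whose groups overlap.

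Of the inner membrane genes, Lbr rose, Emd fell and Tmpo lay between. Lbr (ENSMUSG00000004880, chromosome 1, 181815335 to 181843046, minus strand) encodes the lamin B receptor, which binds B-type lamins and heterochromatin protein 1 and is also a sterol reductase. It was at 140.3, 123 and 124 CPM in KO-labelled libraries, against 88.03, 95.5 and 89.5 CPM in WT libraries. The groups were well apart, with a log2 difference of 0.50 (95% interval 0.34 to 0.67, SE 0.07) and an adjusted p of 0.000568 by edgeR. Genes of chromosome 1 as a whole stood 0.29 higher in median on the log2 scale, and the 66 other tested genes within 5 Mb of Lbr 0.24 higher. Measured against these, the difference of Lbr was 0.22 relative to its chromosome and 0.27 relative to its neighbours. The part of the chromosome level in the rise of Lbr was not tested.

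Emd (ENSMUSG00000001964, chromosome X, 74254687 to 74261548, plus strand) encodes emerin, a LEM-domain protein that binds lamin A and the chromatin protein BAF. It was at 53.4, 54.8 and 49.5 CPM in KO-labelled libraries, against 78.6, 76.2 and 86.1 CPM in WT libraries. No value of one group reached the other, and the log2 difference was -0.61 (95% interval -0.78 to -0.44, SE 0.08). The adjusted p was 0.000193 by edgeR. The 65 other tested genes within 5 Mb had a median of 0.05, so Emd stood -0.66 relative to them.

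Tmpo (ENSMUSG00000019961, chromosome 10, 91147571 to 91181315, minus strand) encodes the lamina-associated polypeptides 2, a set of splice forms of which some sit in the inner membrane and bind B-type lamins and one is nucleoplasmic and binds A-type lamins. A count per gene does not separate them. It was at 496, 501 and 481 CPM in KO-labelled libraries, against 411, 427 and 467 CPM in WT libraries. The groups did not overlap, but the log2 difference of 0.18 (95% interval 0.01 to 0.35) had an adjusted p of 0.0838 by edgeR and was not called. Without WT library 3, the highest of its group, the log2 difference was 0.23 and the adjusted p 0.0392. Without WT library 1, the lowest of its group, the log2 difference was 0.14 and the adjusted p 0.213. Tmpo was called in 2 and not called in 11 of 13 alternative fits.

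**Figure D3:**
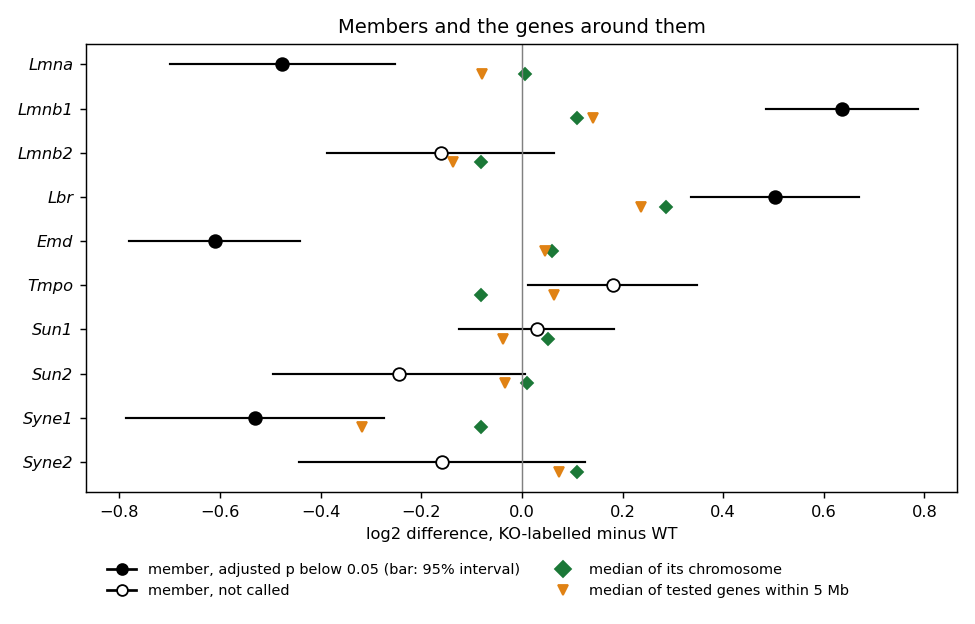
Log2 difference, KO-labelled minus WT, of each member with its 95% interval (filled where called), beside the median of all tested genes on its chromosome (diamond) and of tested genes within 5 Mb (triangle). The neighbours of Lbr lie 0.24 above and those of Syne1 0.32 below 0, while those of Emd and Lmna lie within 0.08 of it.

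The SUN genes, whose proteins form the inner side of the LINC complex, were not called. Sun1 (ENSMUSG00000036817, chromosome 5) was at 85.8, 87.8 and 92.9 CPM in KO-labelled libraries, against 91.8, 86.6 and 82.7 CPM in WT libraries. The groups overlapped, and the 95% interval of the log2 difference of 0.03 ran from -0.12 to 0.18. Sun2 (ENSMUSG00000042524, chromosome 15) was at 68.5, 71.4 and 72.5 CPM in KO-labelled libraries, against 98.6, 83.4 and 69.6 CPM in WT libraries. Its WT libraries were spread more widely than its KO-labelled ones, WT library 3 lay within the KO-labelled range, and the log2 difference of -0.24 (95% interval -0.50 to 0.01) was not called. Without WT library 3 it was -0.36 with an adjusted p of 0.00889 by edgeR. Without WT library 1, the highest of its group, it was -0.12 with an adjusted p of 0.352. Sun2 was called in 2 of 13 alternative fits. Sun2 over Sun1 was 0.797 ± 0.0165 in KO-labelled and 0.959 ± 0.116 in WT libraries (SD, n = 3 each), without overlap (exact permutation p = 0.1).

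Of the nesprin genes, Syne1 fell and Syne2 was not called. Syne1 (ENSMUSG00000096054, chromosome 10, 5020917 to 5551482, minus strand) encodes nesprin-1, whose giant form binds actin and whose short forms lack that end. It was at 39.5, 49.8 and 54.8 CPM in KO-labelled libraries, against 70.5, 73.1 and 64.5 CPM in WT libraries. All KO-labelled values were below all WT values, with KO-labelled library 1 the lowest. On the log2 scale it differed by -0.53 (SE 0.11, 95% interval -0.79 to -0.27; adjusted p = 0.00504 by edgeR). Without KO-labelled library 1 it was -0.41 with an adjusted p of 0.00835.

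Syne1 also lay in a stretch of chromosome 10 that was lower as a whole. The 29 other tested genes within 5 Mb of it had a median log2 difference of -0.32, against -0.08 for chromosome 10, so Syne1 stood -0.21 relative to its neighbours. The part of that stretch in the fall of Syne1 was not tested. Lmnb2 and Tmpo lie on the same chromosome far from Syne1, and their neighbours had medians of -0.14 and 0.06.

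Syne2 (ENSMUSG00000063450, chromosome 12, 75818134 to 76110926, plus strand), the gene of nesprin-2, was at 43.3, 59.3 and 62.8 CPM in KO-labelled libraries, against 64.5, 62.8 and 57.2 CPM in WT libraries. KO-labelled library 1 was low and the other values overlapped, so the log2 difference was -0.16 (95% interval -0.44 to 0.13) with all libraries and -0.01 without KO-labelled library 1. Syne1 and Syne2 have the longest transcripts of the list. The 271 tested genes with an annotated transcript of at least 10 kb and a mean of at least 5 CPM had a median of -0.06 in that library and between -0.03 and 0.09 in the other 5, relative to each gene's mean over the libraries on the scale of log2(CPM + 0.5), against -0.54 for Syne1 and -0.41 for Syne2. Over KO-labelled libraries 1, 2 and 3 this median was -0.06, 0.02 and 0.09, and the values of Syne1 and Syne2 rose in the same order. The part of transcript length was not tested. Syne2 over Syne1 was 1.14 ± 0.0467 in KO-labelled and 0.887 ± 0.0271 in WT libraries (SD, n = 3 each), without overlap. The summed SUN counts over the summed nesprin counts were 1.86, 1.46 and 1.41 in KO-labelled and 1.41, 1.25 and 1.25 in WT libraries, which overlapped (exact permutation p = 0.2).

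Per kb of exon sequence, the members differed widely in level. Lmna was highest in both groups, at 100.6 ± 7.35 CPM per kb in KO-labelled and 139.99 ± 15.6 CPM per kb in WT libraries (SD, n = 3 each). Lmnb1 followed at 70.6 ± 1.86 CPM per kb in KO-labelled and 45.4 ± 2.54 CPM per kb in WT libraries, and then Tmpo at 44.8 ± 0.947 CPM per kb in KO-labelled and 39.5 ± 2.64 CPM per kb in WT libraries. By the exon union Emd and Lbr changed places: Lbr was at 27.1 ± 2.06 and Emd at 20.9 ± 1.08 CPM per kb in KO-labelled libraries, whereas Lbr was at 19.1 ± 0.837 and Emd at 31.9 ± 2.05 CPM per kb in WT libraries. Sun2 and Sun1 came next, at 13.06 ± 0.382 and 11.7 ± 0.481 CPM per kb in KO-labelled and 15.5 ± 2.67 and 11.5 ± 0.597 CPM per kb in WT libraries. Lmnb2 was below them, at 8.77 ± 0.816 CPM per kb in KO-labelled and 9.81 ± 1.07 CPM per kb in WT libraries, and in WT libraries its gap to Sun1 was less than the sum of their SDs. Syne2 and Syne1 were the lowest, with Syne1 at 1.19 ± 0.193 CPM per kb in KO-labelled and 1.71 ± 0.109 CPM per kb in WT libraries. In KO-labelled libraries Syne2, at 2.06 ± 0.389 CPM per kb, was above Syne1 by more than the spread. The order rests on the length used, since the exon union counts exons that a given form lacks: with the longest annotated transcript 5 of 10 members kept their rank in WT libraries, and with the median coding transcript 1 of 10. With the longest transcript Lbr was at 36.8 ± 2.80 and Emd at 33.0 ± 1.71 CPM per kb in KO-labelled libraries. In WT libraries they were at 25.9 ± 1.14 and 50.4 ± 3.23 CPM per kb, so the places changed with this length too. With the median coding transcript Lbr was above Emd in both groups, at 206 ± 15.7 against 47.1 ± 2.44 CPM per kb in KO-labelled and 145 ± 6.36 against 71.9 ± 4.61 CPM per kb in WT libraries. That length was 0.627 kb for Lbr, whose longest transcript was 3.51 kb, and this last order rests on it.

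**Figure D4:**
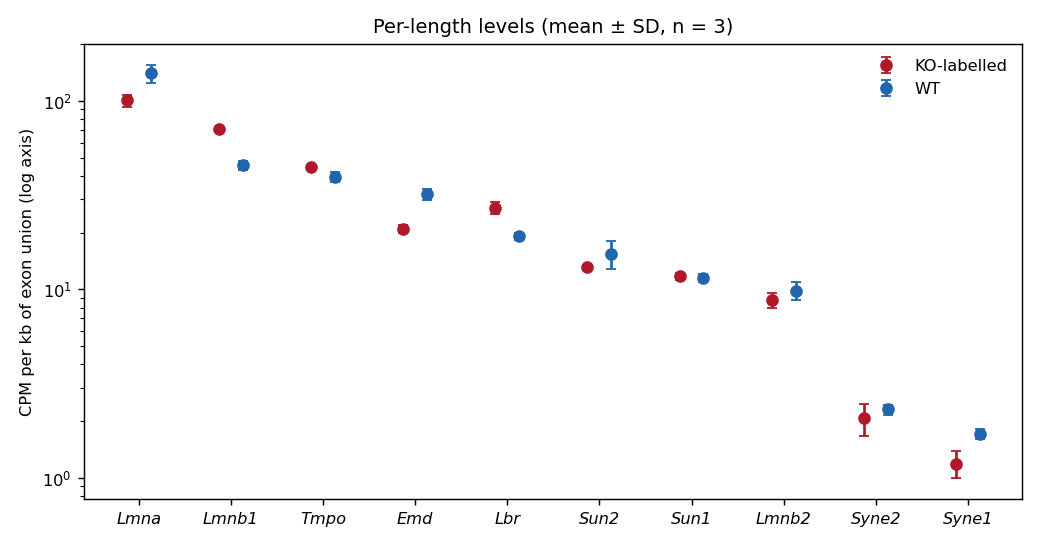
Level of each member as CPM per kb of its exon union (log axis), mean and SD of 3 libraries per group, ordered by the WT level. Lmna is the highest member in both groups, and by this length Lbr is above Emd in KO-labelled libraries and below it in WT libraries.

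Other genes of the envelope and its partners were read from 5 lists of 41 genes, of which 38 were tested, 6 rose and 10 fell, or 42.1% called against 38.9% of all genes tested. Of 5 lamin maturation enzymes, 0 rose, 2 fell and 3 were not called, with a median of -0.01. Icmt, which methylates the farnesylated end of lamins, was at 40.8 ± 1.98 CPM in KO-labelled and 50.8 ± 5.42 CPM in WT libraries (log2 difference -0.31, adjusted p 0.0203 by edgeR, lost in 4 of 13 alternative fits). Rce1, the protease that acts before it, had a log2 difference of -0.23 with an adjusted p of 0.044 and lost its call in 9 of 13 alternative fits. Its 206 tested neighbours on chromosome 19 had a median of -0.28, so Rce1 stood 0.05 above them. Zmpste24, which cleaves prelamin A, was at 175 ± 7.30 CPM in KO-labelled and 159.6 ± 15.1 CPM in WT libraries and was not called.

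Of 12 other inner membrane, LEM-domain and torsin genes, 2 rose, 1 fell and 9 were not called, with a median of 0.02. Tmem43, the gene of LUMA, an inner membrane protein that binds emerin and lamins, was at 103, 118 and 118 CPM in KO-labelled libraries, against 224, 205 and 193 CPM in WT libraries. Its groups were far apart, with a log2 difference of -0.87 (SE 0.08) and an adjusted p of 3.39e-05 by edgeR. Tor1aip2, an activator of torsins, rose by 0.29 on the log2 scale (adjusted p 0.00834 by edgeR), and the median of its neighbours within 5 Mb on chromosome 1 was 0.28. Nrm, the gene of the membrane protein nurim, had a log2 difference of 0.25 (adjusted p 0.0449 by edgeR), which was lost in 9 of 13 alternative fits, and its neighbours on chromosome 17 had a median of 0.26. The BAF gene Banf1, named after its value was seen, was at 116 ± 6.10 CPM in KO-labelled and 116 ± 1.85 CPM in WT libraries.

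Of 7 other SUN and KASH genes, 4 were tested and 1 fell, with a median of -0.27, the same with that gene at its bound. Ccdc155, the gene of the meiotic KASH protein KASH5, had 0 counts in all 3 KO-labelled libraries and 95, 104 and 73 counts in the WT libraries. It was at least 76.0-fold lower in the KO-labelled libraries against a floor of 3 counts over the group, from a low WT level of 2.09 ± 0.312 CPM. Syne3, the gene of nesprin-3, which binds plectin, was at 64.3 ± 8.56 CPM in KO-labelled and 78.1 ± 6.58 CPM in WT libraries and was not called (adjusted p 0.0599 by edgeR), but it passed in 4 of 13 alternative fits: DESeq2 (0.0295), no count filter (0.00246) and without KO-labelled library 3 (0.0376) or WT library 3 (0.0273). Spag4, a SUN-domain gene, was at 1.49 ± 0.246 CPM in KO-labelled and 1.79 ± 0.301 CPM in WT libraries and was not called.

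Of 9 cytoskeletal partners of nesprins, 0 rose, 4 fell and 5 were not called, with a median of -0.24. Bicd2, a dynein adaptor known to bind Ranbp2 at the nuclear pore before mitosis, was at 78.3, 81.7 and 87.3 CPM in KO-labelled libraries, against 144, 151 and 155 CPM in WT libraries. The groups did not overlap, and the log2 difference was -0.86 (SE 0.07; adjusted p = 1.11e-05 by edgeR). Its 56 tested neighbours on chromosome 13 had a median of -0.47, and Bicd2 stood -0.40 relative to them. Klc2, a kinesin light chain, fell by 0.55 (SE 0.08), and its 214 tested neighbours on chromosome 19 had a median of -0.26, so that it stood -0.28 relative to them. Fscn1, the actin-bundling protein fascin, fell by 0.64 (SE 0.09) on the log2 scale.

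Of 8 chromatin partners of lamina proteins, 4 rose, 2 fell and 2 were not called, with a median of 0.29. Cbx5, the gene of heterochromatin protein 1 alpha, was at 499, 492 and 526 CPM in KO-labelled libraries, against 375, 381 and 370.3 CPM in WT libraries. The groups were clearly apart, with a log2 difference of 0.43 (SE 0.07) and an adjusted p of 0.000855 by edgeR. The other genes of this protein family, Cbx1 and Cbx3, named after their values were seen, rose by 0.42 (SE 0.08) and 0.45 (SE 0.08) on the log2 scale. Vrk1, a kinase that releases BAF from chromatin, rose by 0.42 (SE 0.07), and Prr14, which tethers heterochromatin protein 1 to the lamina, fell by 0.46 (SE 0.07). Rb1, also named after its value was seen, fell by 0.35 (SE 0.08) on the log2 scale.

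Some markers of proliferation rose as Lmnb1, Lbr and the Cbx genes did. Of 16 such markers, 9 rose, 0 fell and 7 were not called, where 17.6% of all genes tested rose. The 9 that rose were Mcm2, Mcm3, Mcm5, Mcm6, Pcna, Tyms, Ccna2, Ccne2 and Bub1. Their log2 differences ran from 0.23 for Bub1 to 0.73 for Mcm6. Among those not called were Top2a (log2 difference 0.05), Plk1 (-0.06) and Ccnb1 (-0.18). The summed level of the 16 markers was 3835 to 4229 CPM in the KO-labelled and 3418 to 3439 CPM in WT libraries. Of the markers, 0 were at 0 counts in all libraries. Their part in the differences above was not tested.

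**Figure D5:**
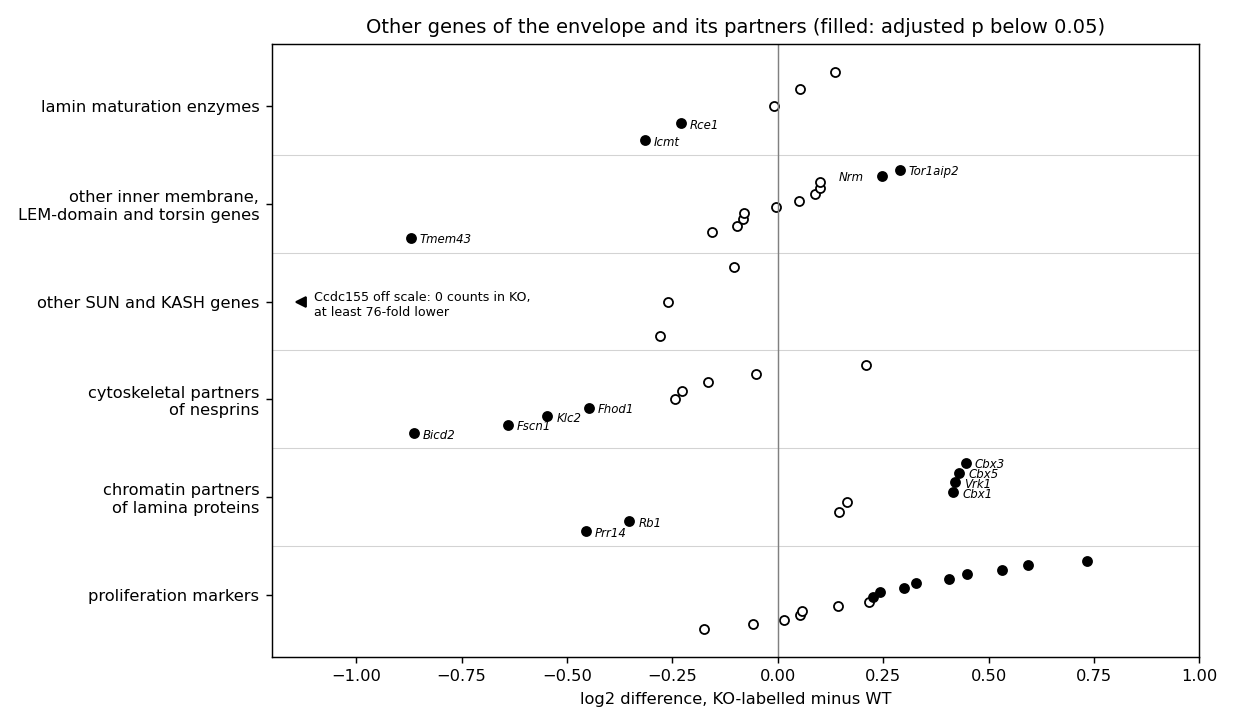
Log2 difference, KO-labelled minus WT, of each tested gene of the 5 partner lists and of the proliferation markers (filled where called). Tmem43 and Bicd2 lie furthest to the left apart from Ccdc155, which had 0 counts in the KO-labelled libraries, and the 3 Cbx genes lie between 0.42 and 0.45.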

How the data were processed

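The authors deposited expected counts for each Ensembl gene; per the submitters' processing notes, RSEM, cutadapt and the build GRCm38 were used. Tool versions, the aligner and whether counting used strand: not given in the sources used here. RSEM splits reads that match several genes, and 17.9% of values are not whole. Symbols and positions (1-based) are from GENCODE M21, also GRCm38, which matched 55230 identifiers and left 241 unmatched.

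Expected counts were rounded, filtered with filterByExpr (minimum count 10, minimum total 15), scaled by TMM and tested between genotypes in edgeR 4.0.16 (R 4.3.3) by a two-sided quasi-likelihood F test with no other term, adjusted by Benjamini-Hochberg over 15454 genes; intervals use the SE from the F statistic. CPM values are mean ± SD of 3 libraries. Ratios used unrounded counts and exact permutation tests (SciPy 1.17.1). The code was tested on simulated data. Alternatives covered scaling, filter, rounding, DESeq2 1.42.0, a replicate block, chromosome and neighbour medians and each library left out.

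A member held 1202 to 37784 expected counts per library. The 6 deposited genes that share exonic bases with a member (as protein-coding, antisense or other neighbours) had at most 32.8 expected counts in any library. The floor of 3 counts for a group at 0 covers counting error only. The members and lists were chosen with earlier results of these data known. All members were named, and from each partner list the text names the 3 genes of smallest adjusted p. Other partner genes, and the single genes named from the marker lists, were chosen after their values were seen.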

Additional observations from a re-analysis of the deposited data

How the results depend on the processing

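The 5 called members kept their direction and their call under all 13 alternative fits, with adjusted p-values up to 0.025. The count of called members was 5 to 7, partner genes called 13 to 18 and all genes called 4353 to 6652, in each case from the lowest to the highest alternative; leaving out 1 library gave 5 to 7, 13 to 18 and 4353 to 6106. Sun1, not called in any fit, changed sign without a count filter (-0.0043) and without KO-labelled library 3 (-0.0068) or WT library 3 (-0.0063); its range over the 6 fits that left out a library was -0.0068 to 0.0658. Subtracting the median of the chromosome put Nrm at -0.027 and Sun1 at -0.0223. Subtracting the median of genes within 5 Mb was an alternative chosen after seeing the data. It put Nrm at -0.00946, Rce1 at 0.0503 and Zmpste24 at -0.0683. Each of these values has the sign opposite to the main fit, in which Sun1 and Zmpste24 were not called. The cause was not tested. Sun2 was also called without a count filter (-0.28), and Tmpo with at least 1 CPM in all 3 libraries of a group (0.20). With the longest transcript 5 and with the median coding transcript 1 of 10 members kept their per-length rank. All 48 alternative values of the 6 ratios kept their sign, although those of the replicate block equal the main values by arithmetic.

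The replicate numbers of the labels did not pair the libraries: deviations from the group means correlated at 0.0224, -0.0811 and -0.0343 between libraries of the same number, and no library correlated best with its own number. The replicate block gave 5 called members, 13 called partner genes and 4994 called genes in all, against 5, 16 and 6011 without it. The mean paired log2 differences of the ratios equal the unpaired ones by arithmetic, so their equality tests nothing. They were -0.96 for Lmna over the B-type lamins, 0.80 for Lmnb1 over Lmnb2, 0.97 for Lbr over Lmna, -0.26 for Sun2 over Sun1, 0.37 for Syne2 over Syne1 and 0.26 for SUN over nesprin counts, with 0.25 as the smallest exact p that 3 pairs allow.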
